A study of Mus musculus with 36 samples.

Results

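Spp1, the gene encoding the secreted phosphoprotein osteopontin, and Cd44, which encodes one of its cell surface receptors, were followed across RNA-seq libraries of mouse CD4+ T cells. They were taken by gene name and are 2 of the 56748 genes in the count table. Spp1 was singled out because its level in HP1a KO cells recovered with Treg lay far below that in WT cells, so the values of that contrast are given as a description and carry no test. The 2 mutant lines were compared with their own WT littermates. In the HP1a line, a floxed allele of the gene encoding HP1α (Cbx5) had been deleted with a CMV-cre transgene, which acts in all tissues and in the germ line. In the HP1g line, a floxed allele of the gene encoding HP1γ (Cbx3) was deleted with Cd4-cre, which acts from developing thymocytes onwards in T cells. The HP1g littermates called WT were homozygous for the floxed allele and lacked Cd4-cre, while those of the HP1a line carried no mutated allele. Both lines were kept on a mixed background, and the donors were sex-matched littermates 6 to 12 weeks old.

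Each genotype was sampled in 3 conditions. Naive cells were CD4+ T cells selected directly from the donors, partly for a low amount of CD44 protein. Tconv were conventional CD4+ T cells that had been injected as naive cells into lethally irradiated hosts together with syngeneic and semi-allogeneic B6D2F1 bone marrow, and were sorted 3 weeks later as cells carrying the Vβ6 receptor chain. Tconv with Treg came from hosts that had also received ex vivo expanded WT regulatory T cells (Treg), which carried Thy1.1 and were removed in the sort. Each of the 12 groups held 3 libraries. The authors excluded the third library of HP1g KO cells recovered with Treg for its read quality, and it was likewise kept out of the comparisons, so that group has 2 libraries and 35 were used. The labels do not say whether libraries of a group came from separate animals, and the p-values measure the spread between these libraries only. The libraries held between 37029519 and 63042245 estimated counts. Levels are in CPM, the counts of a gene for every 1000000 counts of its library, with TMM-scaled library sizes.

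Osteopontin is secreted by macrophages, osteoblasts and activated T cells. It binds integrins through an RGD motif and a neighbouring motif that is exposed by cleavage, and it is also reported to bind CD44, whose main ligand is hyaluronan. In T cells CD44 rises on activation and stays high on effector and memory cells, where it supports adhesion and migration. Spp1 is known as a target of the Th1 factor T-bet and of RUNX factors.

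Spp1 lies on the plus strand of chromosome 5, chr5:104582165-104589235 in GRCm39, at one end of a cluster of genes for bone and tooth phosphoproteins, and has 12 annotated transcripts, of which 10 are coding. Cd44 lies on the minus strand of chromosome 2, chr2:102641486-102732010, with 12 transcripts, of which 11 are coding. The 250 bases before each RefSeq gene start were read on both strands for 1 motif each of the factors known at the Spp1 promoter, and the matching letters are shown in capitals in the sequences below, which are given because these factors are described with the pathway genes. The Spp1 window lies inside a longer first exon that GENCODE annotates for 4 Spp1 transcripts, and only the 30 bases around its RUNX match are shown. The Cd44 window overlaps no annotated exon. Both are written 5′ to 3′ in the direction of transcription and come from RefSeq, placed on GRCm39 by exact match.
Spp1, chr5:104582845-104582874, plus strand: tttaACCACAaaaccagaggAGGAAGtgta
Cd44, chr2:102732011-102732260, minus strand: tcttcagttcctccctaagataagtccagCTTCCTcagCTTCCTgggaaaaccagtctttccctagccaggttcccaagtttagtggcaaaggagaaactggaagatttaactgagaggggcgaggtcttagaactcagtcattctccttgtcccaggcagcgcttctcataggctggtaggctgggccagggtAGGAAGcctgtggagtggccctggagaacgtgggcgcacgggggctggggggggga

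The RUNX letters ACCACA stood 128 bases before the Spp1 start and were absent from the Cd44 window. They were present in 14% of the 32851 RefSeq promoters of the same length. The ETS letters AGGAAG had 2 matches in the Spp1 window, 148 and 112 bases before the start, the latter shown, and 3 in the Cd44 window, against 29.5% of all promoters with at least 1. The T-box letters GGTGTGA, the vitamin D receptor half-site GGTTCA, the AP-1 letters TGANTCA, the Sp1 letters GGGCGG and the MITF letters TCATGTG were in neither window. They were present in 3.33%, 8.85%, 6.75%, 32.7% and 3.25% of all promoters, respectively.

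The targeted genes kept some reads in KO cells, and a count per gene does not separate the deleted exons from the others. In the HP1a line Cbx5 was at 10.9 ± 1.52 CPM in KO and 22.3 ± 3.23 in WT naive cells (SD, n = 3 each), and in Tconv its log2 fold change between KO and WT was -0.89 (adjusted p = 0.0331, edgeR). In the HP1g line Cbx3 was at 71.8 ± 8.12 CPM in KO and 141 ± 51.6 in WT naive cells (n = 3 each), and at 69.1 ± 5.40 and 94.0 ± 11.3 CPM in Tconv (n = 3 each). T cell markers summed to between 4665 and 7637 CPM in all libraries used. Red blood cell transcripts were high in replicate 1 of all 4 groups of grafted HP1g cells, at 2223 to 4169 CPM.

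Spp1 was nearly silent in naive cells. At most 3 counts were found in any naive library, and 7 of the 12 naive libraries had none. The levels were 0.0555, 0 and 0 CPM in HP1a WT, 0, 0.0232 and 0 in HP1a KO, 0.0743, 0 and 0 in HP1g WT, and 0.0179, 0 and 0.0226 in HP1g KO naive cells. These lie at or near the level of 3 counts, 0.0476 to 0.0810 CPM, so no difference between genotypes could be detected at this depth, and Spp1 did not pass the filter on low counts in either comparison of naive cells.

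In Tconv recovered without Treg, Spp1 was at 1.61, 2.26 and 1.42 CPM in HP1a WT and at 0.882, 0.715 and 0.858 CPM in HP1a KO cells. In the HP1g line it was at 0.884, 1.65 and 3.80 CPM in WT and at 3.05, 256 and 33.0 CPM in KO cells. Thus 3 of these groups had low levels in all libraries, and 2 of the 3 HP1g KO libraries stood far above them.

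Spp1 was higher in all Tconv libraries than in any naive library of the same line. It passed the filter in these comparisons through its Tconv libraries only and so had to differ, which is why its levels are described by ratios and no call is counted. Ratios between Tconv and naive cells were taken from counts summed over a group, divided by its summed library totals without TMM scaling. The ratio was 96.9 in HP1a WT (exact 95% interval 32.7 to 473, from 219 against 3 counts) and 111 in HP1a KO (19.6 to 4423, from 122 against 1 count). It was 90.2 in HP1g WT (30.6 to 440, from 300 against 3 counts) and 6636 in HP1g KO (1837 to 54805, from 13334 against 2 counts). These intervals cover counting error only.

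Between HP1a KO and WT Tconv, the Spp1 levels did not overlap, with means of 0.818 ± 0.0904 and 1.76 ± 0.437 CPM (SD, n = 3 each). The log2 fold change was -1.10 (95% interval -1.80 to -0.41) and missed the threshold over all genes (adjusted p = 0.549, edgeR). In this comparison 0.103% of the genes tested were called.

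With Treg, Spp1 in HP1a WT cells was at 228, 337 and 299 CPM, and in HP1a KO cells at 1.64, 7.75 and 4.20 CPM. All 3 WT libraries lay above all KO libraries, with means of 288 ± 55.3 and 4.53 ± 3.07 CPM (n = 3 each). Markers of other cells separated the same libraries. The 7 neutrophil markers summed to 1.59 to 37 CPM in WT and to 242 to 434 CPM in KO cells, with 2 to 4 markers at 0 in the WT and at most 2 in the KO libraries. The 4 red blood cell markers summed to 1.46 to 29.1 CPM in WT and 73.8 to 442 CPM in KO cells, with 1 or 2 at 0 in the WT and 0 in the KO libraries. T cell marker sums separated these libraries as well, at 6741 to 7273 CPM in WT and 5564 to 6407 CPM in KO cells. Singly, only Cd3d, Cd3e and Cd3g did so, for example Cd3e at 1187 to 1644 CPM in WT and 895 to 1125 CPM in KO cells. Cd4, Lck and Cd28 overlapped, for example Cd4 at 711 to 1345 CPM in WT and 921 to 1024 CPM in KO cells. The part of these markers in the Spp1 difference was not tested. The WT mean was 63.5 times the KO mean, the log2 fold change between KO and WT was -6.01, and 0.123% of all genes tested were called in this contrast, from which the gene was picked. The same WT libraries set the difference to Tconv without Treg. The WT mean with Treg was 163 times that without Treg and the KO mean 5.54 times that without Treg, which corresponded to log2 fold changes of 7.36 and 2.48 and to a difference between the genotypes of -4.89. In both genotypes each library with Treg lay above each without.

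**Figure D1:**
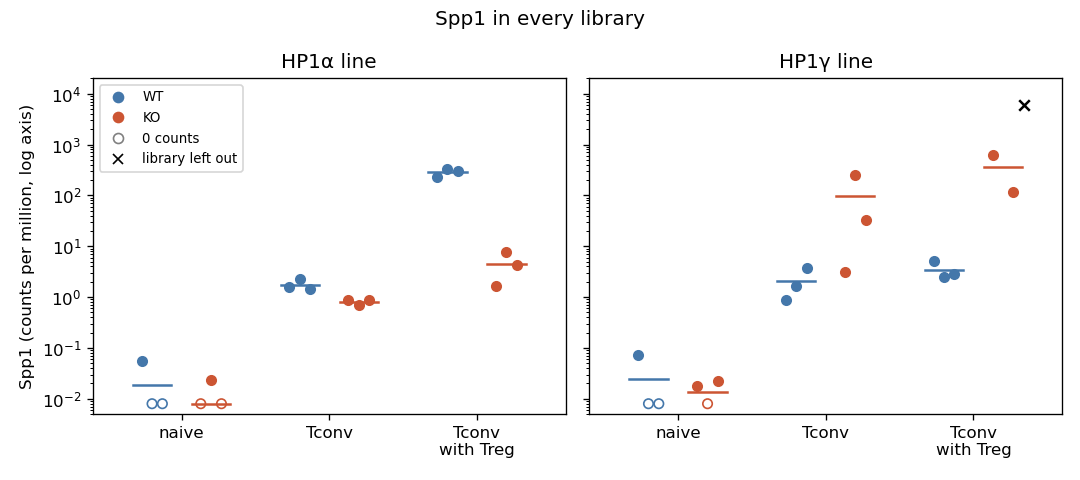
Spp1 level in each library in CPM on a log axis, in the HP1α line (left) and the HP1γ line (right), with WT in blue and KO in red. Horizontal lines are group means, open circles at the bottom are libraries with 0 counts, and the cross is the library left out, at 6108 CPM. With Treg, the 3 HP1a WT libraries lie between 228 and 337 CPM and the HP1g WT libraries between 2.48 and 5.10.

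The HP1g line showed the opposite order with Treg. Spp1 was at 5.10, 2.48 and 2.79 CPM in WT and at 621 and 119 CPM in the 2 KO libraries used. The groups did not overlap, with means of 3.46 ± 1.43 (n = 3) and 370 ± 355 CPM (n = 2), and the KO mean was 107 times the WT mean. The Spp1 log2 fold change was 6.75 with an SE of 0.79 (95% interval 4.81 to 8.69), and it missed the threshold over all genes with edgeR (adjusted p = 0.146), a fit in which 0% of the 17177 genes tested were called. The unadjusted p was under 0.05 for 2028 of them. The call depended on the fit. With DESeq2, the tool used in the study, which called 628 genes, the adjusted p was 4.13e-12. In edgeR it was 0.0272 with all libraries of the line in 1 fit and 0.0274 with the replicate number as a block (log2 fold change 6.30). It was 0.0233 without HP1g KO replicate 2 (log2 fold change 7.47), which leaves 1 KO library that is assumed to vary like the WT libraries. The left-out KO library had 6108 CPM of Spp1, and with it included the log2 fold change was 10.8 with an adjusted p of 0.644.

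Without Treg, Spp1 averaged 97.5 ± 138 CPM in HP1g KO Tconv and 2.11 ± 1.51 CPM in WT Tconv (SD, n = 3 each). The groups overlapped, since KO replicate 1 (3.05 CPM) lay below the highest WT library (3.80 CPM). The log2 fold change was 5.54 with an SE of 1.67 (adjusted p = 0.431, edgeR), in a comparison in which 0.0437% of genes were called. It passed the threshold with DESeq2 (adjusted p = 0.0129), and it was as low as 3.10 when 1 library was left out. Adding Treg left the HP1g groups overlapping, with log2 fold changes of 0.71 in WT (95% interval -0.59 to 2.01, adjusted p = 0.841) and 1.94 in KO (95% interval -1.93 to 5.81, adjusted p = 0.829), where 0.0126% and 0% of genes were called. The difference of these effects, 1.21, had an interval from -3.13 to 5.54 (adjusted p = 1.0, with 0% of genes called).

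WT cells themselves differed between the lines with Treg. Spp1 averaged 288 CPM in the HP1a line and 3.46 CPM in the HP1g line, while WT Tconv without Treg averaged 1.76 and 2.11 CPM. The study states that the Treg dose of the HP1g experiment did not repress WT cells well, and the line and the experiment cannot be told apart.

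Ordered by mean, Spp1 was highest in HP1g KO and HP1a WT Tconv with Treg (370 and 288 CPM), followed by HP1g KO Tconv (97.5), HP1a KO and HP1g WT Tconv with Treg (4.53 and 3.46), HP1g WT, HP1a WT and HP1a KO Tconv (2.11, 1.76 and 0.818), and the 4 naive groups. Neighbours in this order overlapped in range, except that HP1a KO Tconv lay below HP1a WT Tconv and above all naive groups.

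Macrophages are a rich source of osteopontin, and their markers were followed beside it. In a bulk sample, fewer cells of a type and less RNA per cell cannot be told apart. The 12 macrophage and monocyte markers summed to 33.6 to 59.4 CPM in HP1a WT and to 56.5 to 413 CPM in HP1a KO Tconv with Treg, so the ranges overlapped at their edges and the highest sums were in the KO libraries, where Spp1 was low. At most 1 of the 12 markers was at 0 in any of these libraries. Within HP1a WT cells the sum was higher with Treg, like Spp1, and did not overlap the 8.19 to 9.47 CPM found without Treg. The part of macrophage RNA in the Spp1 level was not tested. Of the 12 markers, only the lysozyme gene Lyz2 and Csf1r separated HP1a WT and KO Tconv with Treg. Lyz2 was at 0.523 to 6.04 CPM in WT and 27.8 to 154 CPM in KO cells, and Csf1r at 3.83 to 6.49 and 8.20 to 56.4 CPM. The other markers overlapped, for example Cd68 at 9.21 to 21.3 CPM in WT and 6.44 to 20.7 CPM in KO cells. In the HP1g line with Treg the sums overlapped, at 76.3 and 98.5 CPM in KO and 33.9 to 102 CPM in WT cells.

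Across the grafted libraries used, the sum of 3 Treg markers tended to be higher where Spp1 was higher, mostly through 1 of them. Single libraries departed from this. The sum was 174 CPM in HP1a KO with Treg replicate 2, at 7.75 CPM of Spp1. In the left-out HP1g KO library it was 48.5 CPM, at 6108 CPM of Spp1. Foxp3, the lineage factor of Treg, Ikzf2, which encodes Helios, and Il2ra, the α chain of the IL-2 receptor, summed to 206 to 359 CPM in HP1a WT and to 67.7 to 174 CPM in HP1a KO Tconv with Treg. In the HP1g line with Treg they summed to 172 and 95.7 CPM in KO and to 47.8 to 67.0 CPM in WT cells. Among HP1g KO Tconv without Treg, the sums were 47.9, 115 and 61.2 CPM in replicates 1 to 3, highest in the library with the highest Spp1. Ikzf2 made up most of the sums that were high. With Treg it was at 155 to 326 CPM in HP1a WT against 41.4 to 112 in HP1a KO, and at 150 and 62.6 in HP1g KO against 17.5 to 25.1 in HP1g WT cells. Il2ra did not follow Spp1. In HP1a WT it was at 39.0 to 42.1 CPM without and 10.7 to 27.8 with Treg, and with Treg its KO and WT levels overlapped in both lines. Foxp3 overlapped between HP1a WT (13.5 to 69.2 CPM) and KO (8.57 to 34.8 CPM) with Treg, was higher in HP1g KO (8.46 and 11.2 CPM) than in HP1g WT cells with Treg (3.37 to 4.56 CPM), and was at 1.91 to 2.47 CPM in all 3 HP1g KO Tconv libraries without Treg. Over the 23 grafted libraries, Pearson's r of log2(CPM + 1) between Spp1 and the sum was 0.79 for Treg markers, 0.69 for T cell markers and 0.05 for macrophage markers. The libraries share groups and the r is descriptive. The part of Treg-derived RNA, or of marker genes made by Tconv themselves, in the Spp1 level was not tested.

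**Figure D2:**
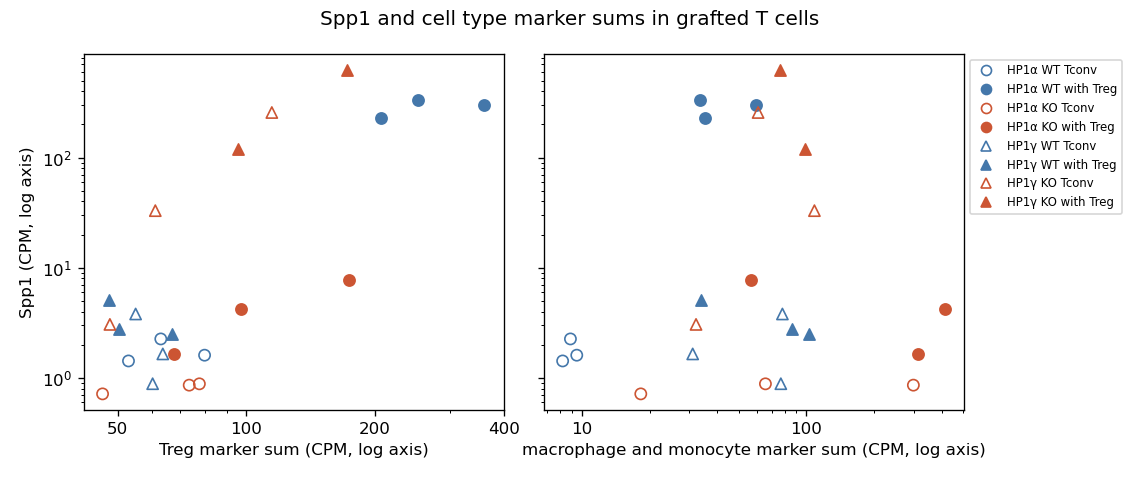
Spp1 in CPM (log axis) against the summed CPM of 3 Treg markers (left) and of 12 macrophage and monocyte markers (right, both log axes) in the 23 grafted libraries. Circles are HP1α and triangles HP1γ libraries, WT in blue and KO in red, filled with Treg and open without. The HP1a WT libraries with Treg sit at Treg marker sums of 206 to 359 CPM, and the HP1a KO libraries with Treg at macrophage sums of 56.5 to 413 CPM.

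Cd44 was expressed in all groups. In naive cells it was at 58.5, 41.0 and 50.3 CPM in HP1a WT, 55.8, 67.0 and 56.7 in HP1a KO, 46.5, 52.1 and 54.0 in HP1g WT and 38.5, 42.8 and 36.7 in HP1g KO. Only in the HP1g line did the genotypes not overlap, and the log2 fold change of -0.35 between HP1g KO and WT missed the threshold (adjusted p = 0.630, edgeR, with 0.00669% of genes called). In the HP1a line it was 0.26 (95% interval -0.07 to 0.59, adjusted p = 1.0, with 0% of 15549 genes called by edgeR, 15 by DESeq2 and 291 reaching an unadjusted p under 0.05). Equally numbered libraries were correlated in this comparison. With the replicate number as a block in edgeR, the adjusted p of Cd44 was 0.585 and 12 genes were called.

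In Tconv, Cd44 rose to 378, 328 and 409 CPM in HP1a WT, 417, 299 and 278 in HP1a KO, 326, 385 and 336 in HP1g WT and 312, 289 and 279 in HP1g KO cells. The log2 fold changes over naive cells were 2.90 ± 0.15, 2.49 ± 0.17, 2.78 ± 0.16 and 2.92 ± 0.10 (SE, n = 3 against 3), and Cd44 was called higher, at an adjusted p under 0.05 and a log2 fold change above 1, in all 4 comparisons (adjusted p of 4.7e-05 or less, edgeR's quasi-likelihood test over all genes). Of all genes tested, 12.9%, 12.4%, 15% and 15.7% were called higher. Because naive cells were selected partly for low CD44 protein, some of this difference may have been set by the selection, which was not tested. The HP1g genotypes did not overlap in Tconv, with KO the lower. Between KO and WT Tconv the log2 fold changes of Cd44 were -0.16 in the HP1a line (95% interval -0.56 to 0.23, adjusted p = 0.800) and -0.23 in the HP1g line (-0.48 to 0.02, adjusted p = 0.636), and neither was called.

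With Treg, Cd44 in HP1a WT cells was at 202, 194 and 193 CPM, a mean of 196 ± 5.26 against 371 ± 41.0 CPM without Treg (n = 3 each). No library overlapped, and the log2 fold change of -0.90 with an SE of 0.14 had an adjusted p of 0.0114 (edgeR), below the fold needed for a call. At an adjusted p alone 7.54% of genes were called in this comparison, and 5.96% with the fold threshold. The adjusted p rose to as much as 0.0759 when 1 library was left out. In HP1a KO cells Cd44 with Treg was at 302, 319 and 281 CPM, overlapping the levels without Treg (log2 fold change -0.13, 95% interval -0.50 to 0.24, adjusted p = 0.757, with 0.44% of genes called). Set beside WT with Treg, the contrast from which Spp1 was picked, the KO libraries were all higher, by 0.60 on the log2 scale, and the difference of the Treg effects was 0.78, in a fit with 0.139% of genes called. Both are descriptions. The neutrophil, red blood cell and T cell markers that separated these libraries are given with Spp1.

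In the HP1g line with Treg, Cd44 was at 269, 329 and 316 CPM in WT and at 158 and 231 CPM in KO cells. The groups did not overlap, the log2 fold change was -0.64 (95% interval -1.12 to -0.15) and the adjusted p was 0.297. The log2 fold change of Cd44 with Treg was -0.19 in WT (adjusted p = 0.780) and -0.58 in KO cells (adjusted p = 0.604), neither past the threshold, and the difference of -0.41 had an interval from -0.90 to 0.09 (adjusted p = 1.0). Ordered by mean, Cd44 ran from 371 CPM in HP1a WT Tconv down to 293 CPM in HP1g KO Tconv through 6 groups whose neighbours overlapped. HP1a WT and HP1g KO Tconv with Treg followed at 196 and 194 CPM, overlapping each other and below those 6 groups, and the naive groups came last at 59.9 to 39.3 CPM.

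**Figure D3:**
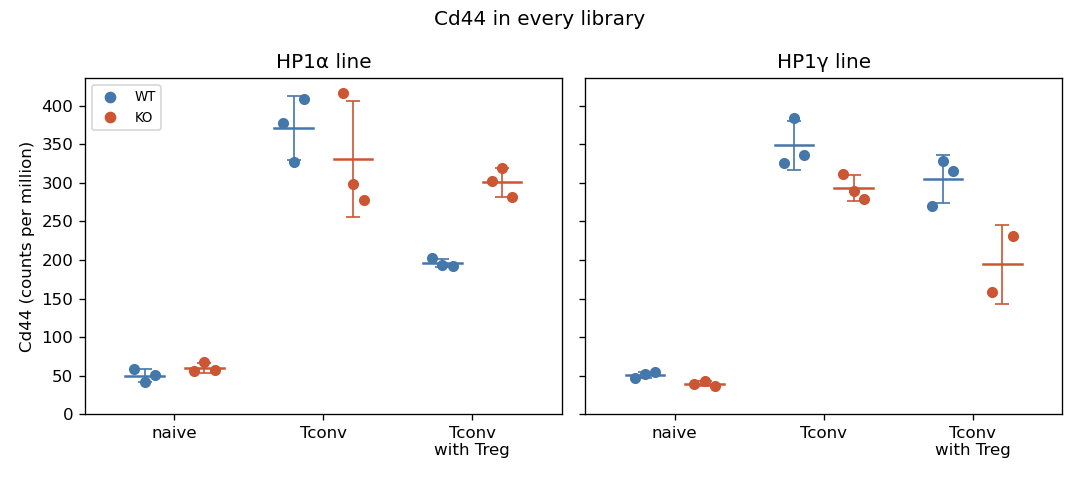
Cd44 level in each library in CPM (linear axis from 0), in the HP1α line (left) and the HP1γ line (right), with WT in blue and KO in red. Horizontal lines are group means and bars are 1 SD, and the library left out is not shown. HP1a WT with Treg (193 to 202 CPM) lies below HP1a KO with Treg (281 to 319 CPM), and HP1g KO with Treg (158 and 231 CPM) below HP1g WT with Treg (269 to 329 CPM).

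Levels of the 2 genes were compared per kilobase of exon, over 2843 exonic bases of Spp1 and 6776 of Cd44. On this scale Spp1 exceeded Cd44 in HP1a WT Tconv with Treg (101 against 29.0 CPM per kilobase) and HP1g KO Tconv with Treg (130 against 28.7). In all other groups Cd44 was the higher, for example 54.8 against 0.620 CPM per kilobase in HP1a WT Tconv. The groups with the highest Spp1 were those with the lowest Cd44 among grafted cells. Over the 23 grafted libraries Pearson's r of log2(CPM + 1) was -0.85, over the 12 naive libraries 0.03 and over all 35 libraries 0.40, as descriptions of libraries that share groups and sorts.

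**Figure D4:**
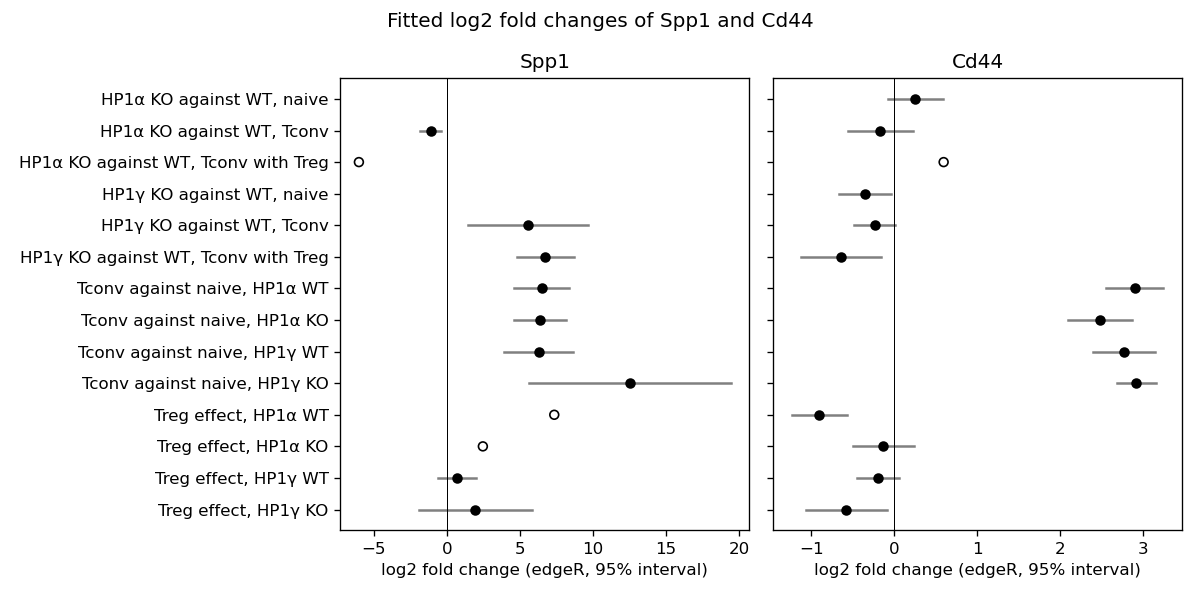
Log2 fold changes of Spp1 (left) and Cd44 (right) from the edgeR fit of each comparison named on the vertical axis, with 95% intervals as grey lines. Open circles without an interval are descriptions, because they use the libraries by which Spp1 was picked. The Spp1 points for Tconv over naive cells are filled and carry intervals, but are descriptions too. Spp1 passed the filter there through its Tconv libraries only and so had to differ. Spp1 was not tested in naive cells, and with Treg it was at -6.01 in HP1a KO and at 6.75 in HP1g KO against WT.

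The genes around osteopontin and CD44 were taken from 5 lists with 46 genes, and 32 of them reached a mean of 1 CPM in at least 1 group. Between KO and WT, edgeR called no listed gene in any of the 6 comparisons in which 29 to 32 listed genes were tested, and at most 0.123% of all genes were called in these, so that a call among so few genes would have been rare. With Treg, DESeq2 called 5 listed genes in the HP1a and 4 in the HP1g line. Among all genes it called 713 of 18592 and 628 of 17578, respectively. With Treg, the median log2 fold change between HP1a KO and WT over the listed genes was 0.08 against -0.01 over all genes tested, and between HP1g KO and WT it was -0.03 against 0.01. In Tconv over naive cells, 14 of 31 listed genes tested were called in HP1a WT, 11 in HP1a KO, 14 in HP1g WT and 14 in HP1g KO, where 23.1%, 19.7%, 23.5% and 23.1% of all genes were called in either direction. These counts are descriptive, since a gene near 0 in one group enters such a comparison through the other and had to differ.

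Among the 10 integrin genes of osteopontin receptors, Itgb1, which encodes the β1 chain, rose in Tconv over naive cells in all 4 comparisons, and Itga5, the α5 chain of the fibronectin receptor, fell in all 4. Itgb1 went from 60.1 ± 5.73 CPM in HP1a WT naive cells to 1580 ± 342 in Tconv (n = 3 each), a log2 fold change of 4.73 (adjusted p = 5.9e-07), and its log2 fold change in the other 3 comparisons was 4.86 to 5.44. Itgb5, the β5 chain, averaged 7.31 to 17.3 CPM in the Tconv groups and had 3 to 10 counts in all in each naive group. It passed the filter through its Tconv libraries only, so no call is counted for it. Itga5 dropped from 4.68 ± 1.33 to 0.142 ± 0.0698 CPM in HP1a WT. Its lowest group mean was 0.0866 CPM. It entered largely through its naive libraries, so its falls are descriptions and no call is counted for it either. Itga4, whose α4 chain pairs with β1 and β7, rose in HP1a KO, HP1g WT and HP1g KO (log2 fold changes of 1.15, 1.99 and 2.23), and Itgav, the αv chain, rose in HP1g WT and KO (1.28 and 1.09). Itga9, the α9 chain, which binds the motif exposed by cleavage, fell in HP1a WT and HP1g WT (-2.98 and -1.90). Its lowest group mean was 0.226 CPM, near the filter, so these falls are descriptions as well. Itgb6 and Itga8 stayed below 1 CPM in all groups.

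With Treg, Itgb3, the β3 chain, fell in HP1a WT cells from 96.7, 134 and 99.6 CPM to 16.0, 38.7 and 12.4 CPM, a log2 fold change of -2.29 (adjusted p = 0.0193, edgeR). Itgb7, the β7 chain of gut homing receptors, fell from 2239 ± 321 to 723 ± 277 CPM (n = 3 each), a log2 fold change of -1.62 (adjusted p = 0.0181). These were 2 of 7 integrin genes tested, in a comparison in which 5.96% of all genes were called. Both calls were lost without any 1 of the HP1a WT Tconv libraries and without HP1a WT with Treg replicate 1, where the adjusted p of Itgb3 was 0.0728 to 0.0822 and that of Itgb7 0.0688 to 0.096. The median log2 fold change of the 7 was -1.36, against 0.03 over all genes. No integrin gene was called for Treg in HP1a KO, HP1g WT or HP1g KO cells, where 7, 7 and 8 were tested and 0.44%, 0.0126% and 0% of all genes were called. The difference between those effects and that in HP1a WT was past the threshold for none of the listed genes in the HP1a line.

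Of the 8 proteases known to cleave osteopontin or CD44, Mmp9, a gelatinase, averaged 57.2 to 222 CPM in the Tconv groups and had 4 to 26 counts in all in each naive group. It too passed that filter through Tconv, and no call over naive cells is counted. It was at 196, 136 and 74.3 CPM in HP1a WT Tconv and at 3.95, 4.05 and 2.54 CPM with Treg, and this drop by 5.25 on the log2 scale was called (adjusted p = 0.00108, edgeR), also with any 1 library left out (adjusted p of 0.00993 or less). Thus Mmp9 was low in the same 3 libraries in which Spp1 was high. The genes for the CD44 sheddases, Adam10 and Adam17, were expressed at 142 to 242 and 70.8 to 129 CPM across group means and were called in no comparison. Mmp3 and Mmp7 were listed at 0 in all groups.

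In the list of CD44 ligands, partners and linkers, Hmmr, which encodes a second hyaluronan receptor and rises in dividing cells, rose in all 4 comparisons of Tconv with naive cells, by 6.45 to 7.76 on the log2 scale. Its lowest group mean was 0.122 CPM, so Hmmr entered largely through Tconv, and these rises are descriptions. Cd74, which encodes a receptor of the cytokine MIF that signals with CD44 and is abundant in antigen-presenting cells, rose in 3 of the 4 and again with Treg in HP1a WT cells (log2 fold change 2.13, adjusted p = 0.0443). The latter call was lost without a filter (adjusted p = 0.106) and when any 1 library other than HP1a WT with Treg replicate 3 was left out (adjusted p of 0.0727 to 0.206). Srgn, the gene of the proteoglycan serglycin, rose in HP1a WT and KO Tconv (1.36 and 1.10). Ezr, Rdx and Msn, which link CD44 to actin, were at 462 to 810, 120 to 183 and 1129 to 2337 CPM across group means and were called in no comparison. Of the hyaluronan synthase genes, Has2 was at 0, Has1 stayed below 1 CPM, and Has3 fell in HP1g WT Tconv over naive cells by 2.07 on the log2 scale. The group means of Has3 ran from 0.275 to 1.17 CPM, near the filter, so its fall is a description.

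All 8 factors known at the Spp1 promoter were expressed. Tbx21, which encodes T-bet, Runx2 and Vdr, the vitamin D receptor gene, were higher in Tconv than in naive cells in each of the 4 comparisons. The log2 fold changes were 9.05 to 10.2, 6.96 to 8.69 and 3.35 to 4.75, respectively. Their lowest group means were near the filter on low counts, at 0.199, 0.299 and 0.156 CPM. As they entered largely through Tconv, these rises are descriptions and no call is counted. Ets1, Sp1 and Fos were called in no comparison. With Treg, HP1a WT cells parted from this pattern. Tbx21 fell from 230 ± 32.6 to 69.5 ± 21.1 CPM (n = 3 each, log2 fold change -1.71, adjusted p = 0.0076), while Vdr rose from 2.39, 5.75 and 1.34 CPM to 49.4, 52.8 and 17.8 CPM (log2 fold change 3.66, adjusted p = 0.0154). The Tbx21 call held with any 1 library left out (adjusted p of 0.0479 or less). That of Vdr was lost without HP1a WT Tconv replicate 1 or 3 or HP1a WT with Treg replicate 1 (adjusted p of 0.0934, 0.0697 and 0.0525). Vdr was at 0.904, 8.92 and 2.99 CPM in HP1a KO Tconv with Treg, at 4.40, 1.97 and 2.03 CPM in HP1g WT and at 27.1 and 8.04 CPM in HP1g KO, so that the 2 groups with the highest mean Vdr were also those with the highest Spp1. It was called in neither comparison of KO with WT.

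**Figure D5:**
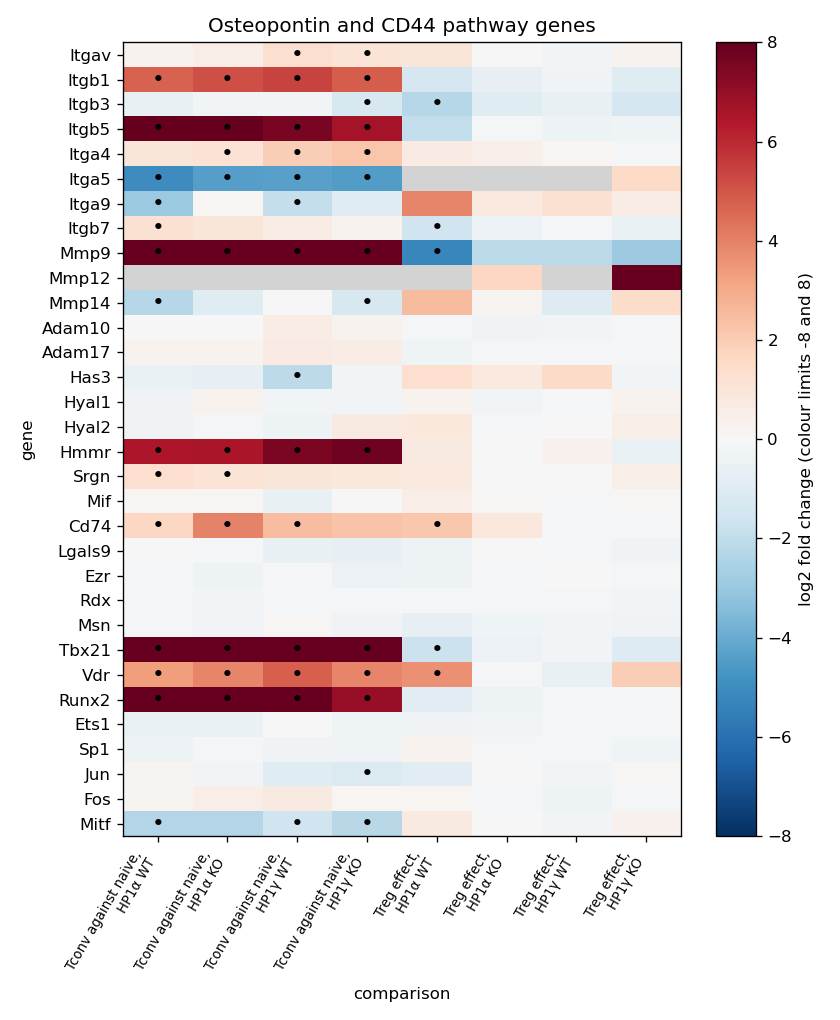
Log2 fold changes (colour, limited at -8 and 8) of the 32 listed genes that reached 1 CPM in at least 1 group, in Tconv over naive cells and in Tconv with Treg over Tconv for each line and genotype. Dots mark genes past both thresholds and grey cells genes that did not pass the filter. In Tconv over naive cells a dot can also fall on a gene that passed the filter largely through 1 group. Such dots are descriptions, and no call is counted for them. Dots for Treg appear in HP1a WT only, on Itgb3, Itgb7, Mmp9, Cd74, Tbx21 and Vdr. With 1 library left out, between 2 and 11 listed genes were called there, while between 306 and 1450 of all genes were called.

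The neighbours of Spp1 in the phosphoprotein cluster, Mepe, Ibsp, Dmp1 and Dspp, did not pass the filter on low counts in any comparison. On the other side Pkd2, which encodes the cation channel polycystin-2 and starts 18005 bases away, had at most 4 counts in all in any naive group and means of 0.976 to 2.21 CPM in the Tconv groups. It passed the filter through Tconv only, as Spp1 did, and no call is counted for it. Between HP1g KO and WT with Treg its log2 fold change was 1.79 (adjusted p = 0.255). Next to Pkd2, Thoc2l fell in all 4 comparisons of Tconv with naive cells, by 1.22 on the log2 scale in HP1a WT. Gm42793, a gene model inside Spp1 on the same strand that shares its reads, had group means of at most 0.794 CPM. Among the 10 nearest genes of Cd44, Slc1a2, which encodes a glutamate transporter, had 0 to 21 counts in all in the naive groups and 52 to 92 in the Tconv groups. Ldlrad3, which encodes a receptor of the LDL receptor family, fell in HP1a WT, and no neighbour of either gene was called between KO and WT.

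Likeness of pattern was measured over the 35 libraries for 9358 genes averaging 5 CPM or more. The genes whose log2(CPM + 1) was most like that of Spp1 were Lag3, an inhibitory receptor gene (Pearson's r = 0.96), Il10, the gene of an inhibitory cytokine (0.93), Ptpn11, which encodes the phosphatase SHP-2 (0.93), Cacna1d, a calcium channel gene (0.93), and Penk, the proenkephalin gene (0.93). Over the 23 grafted libraries their r lay between 0.90 and 0.94. Those most like Cd44 were the chemokine receptor genes Cxcr6 and Ccr2 (0.98 each), Gna15, a G protein gene (0.98), Acsbg1, which encodes an acyl-CoA synthetase (0.98), and Adam8, a metalloprotease gene (0.98). Their r over grafted libraries was lower, 0.79 to 0.88. The r are given without a test.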

How the data were processed

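Libraries were made from 10 pg of total RNA by SMART-Seq amplification. Reads were trimmed, aligned to GRCm39 by STAR and quantified by Salmon by the authors. The deposited values are estimated counts per gene, unscaled, and 82.9% are whole numbers. As Salmon divides shared reads, counts of Gm42793 and Spp1 are less certain. Counts were rounded.

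Groups came from the sample titles. Main results come from the robust quasi-likelihood test of edgeR 4.0.16 (R 4.3.3) with TMM and filterByExpr, on the libraries compared only. Benjamini-Hochberg adjustment ran over all genes tested, and a call needs an adjusted p under 0.05 and an absolute log2 fold change above 1. The study used the same cutoffs but with DESeq2, which is an alternative here, so the main calls are not those of the study. CPM use TMM library sizes of the 35 libraries. The left-out library is scaled by its own total. Ratios of summed counts have exact binomial (Clopper-Pearson) 95% intervals. Libraries differed in depth by less than the Spp1 means of KO and WT grafted cells, but by more than several Cd44 differences. The CPM scale takes depth into account. The closest replicates differed by more than sampling noise (chi-square per gene at least 7.85). The scripts were tested on simulated data.

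Named genes were both genes, the targeted genes, listed genes called with a mean of at least 1 CPM (up to 3 per list and comparison, with others given by count or where a level was asked for), the 5 nearest protein-coding genes on each side, numbered Gm models left out, and the 5 most similar genes, leaving out predicted genes, RIKEN clones and receptor segments. Itgav, Itga4, Itga9, Ets1, Sp1, Fos, Adam10, Adam17, Ezr, Rdx, Msn and the genes said to be at or below 1 CPM were named outside this rule, after their values were seen. Genes and lists were chosen with earlier results of these data known.

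Replicate numbers were taken to pair libraries where every correlation between deviations of equally numbered libraries exceeded 0.1 over 3 or more pairs. This held for HP1a naive cells (0.538 to 0.85) and the Treg effect in HP1g WT (0.164 to 0.478). The main fits did not use this pairing. With the replicate number as a block, 12 of 15549 and 0 of 15903 genes were called in these comparisons, against 0 and 2 without it. Alternatives were DESeq2 1.42.0, RLE size factors, no filter, the adjusted p alone, all libraries of a line in 1 fit, a replicate block, each library left out in turn, and the left-out library included. Positions come from GENCODE.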

Additional observations from a re-analysis of the deposited data

Results flagged for a closer look

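Spp1 moved in opposite directions between KO and WT cells of the 2 lines when Treg were present. The log2 fold change was -6.01 in the HP1a line, where each of 3 KO libraries lay below each of 3 WT libraries, and 6.75 in the HP1g line, where both KO libraries lay above all 3 WT libraries. Cd44 showed the reverse, with 0.60 in the HP1a line and -0.64 in the HP1g line, again with no overlap between the libraries of a line. The difference between the lines was not tested for either gene, because the HP1a contrast is the one by which Spp1 was picked, and the lines were handled as separate experiments with unlike levels in their WT cells with Treg.

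The library left out of the comparisons, replicate 3 of HP1g KO Tconv with Treg, had 6108 CPM of Spp1, which was 0.611% of its counts and above the highest HP1g WT library with Treg (5.10 CPM). Its Cd44 level was 27.8 CPM, below every naive library used. It held 36961946 counts, and 18623 genes were detected in it against 20158 to 23340 in the libraries used. Groups of 3 libraries are too small to look for single outlying libraries by a gap test.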

How the results depend on the processing

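Every log2 fold change of Spp1 and Cd44 kept its direction under DESeq2, RLE size factors, no filter, the line-wide fit, the replicate block and the left-out library included. Calls changed for Spp1 in HP1g KO against WT Tconv under DESeq2 (5.53), for HP1g KO against WT with Treg in the line-wide fit (6.75), under DESeq2 (6.74) and with the replicate block (6.30, adjusted p = 0.0274), all gained, and for HP1g KO Tconv against naive cells without a filter (12.5, adjusted p = 0.0621) and without HP1g KO naive replicate 1 (adjusted p = 0.0666), lost from 0.0157, a call the text does not use. The cause was not tested. Cd44 in HP1a WT with Treg (-0.90) passed on the adjusted p alone. The block changed no other call of either gene. The block with Treg in the HP1g line rests on 2 pairs of libraries, too few for the pairing rule, whose deviations correlated at 0.225 and 0.458. Red blood cell transcripts were high in replicate 1 of both groups.

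With 1 library left out in turn, Spp1 ranged from 5.12 to 7.47 for HP1g KO against WT with Treg, from 10.1 to 13.1 for HP1g KO Tconv against naive cells, from 1.83 (without HP1a KO with Treg replicate 2) to 2.87 for Treg in HP1a KO, and from -0.42 (without HP1g KO with Treg replicate 1) to 3.65 for the HP1g interaction. Cd44 ranged from -0.24 to 0.074 (without HP1a KO Tconv replicate 1) for Treg in HP1a KO. Listed genes called for Treg in HP1a WT, 6 in all, were 2, 3 and 2 without HP1a WT Tconv replicates 1 to 3, and 2, 6 and 11 without replicates 1 to 3 with Treg. Calls over all genes moved too. They were 932 of 15627 in the main fit. Without the Tconv replicates they were 315 of 16551, 378 of 16378 and 306 of 16525. Without those with Treg they were 608 of 16069, 930 of 16143 and 1450 of 16276. In place of 0, 1 listed gene was called without HP1a KO Tconv replicate 1 for Treg in HP1a KO, where 58 of 16844 genes were called. Fits without a replicate of HP1g KO with Treg leave 1 library in that group, and listed genes called in them are not counted. This was not run for the HP1a interaction, a description.

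Of the 5 genes most like Spp1, 2 stayed among the first 5 by Spearman's rho and 2 in the HP1g line alone, and of those most like Cd44, 1 and 2. DESeq2 called more genes than edgeR between KO and WT: 15 against 0 and 38 against 1 in naive cells, 207 against 16 and 264 against 7 in Tconv, and 713 against 20 and 628 against 0 with Treg, for the HP1a and HP1g lines in turn. It called 1754 against 932, 443 against 71, 57 against 2 and 270 against 0 genes for Treg in HP1a WT, HP1a KO, HP1g WT and HP1g KO. Listed genes called with Treg were 5 for HP1a KO against WT, 4 for HP1g KO against WT and 10 for Treg in HP1a WT under DESeq2, against 0, 0 and 6. Depth limits Spp1 in naive cells only.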
